A study of Mus musculus with 18 samples.

Results

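The genes described here are 35 immediate early and MAPK feedback genes: 10 AP-1 and related bZIP factor genes (Fos, Fosb, Fosl1, Fosl2, Jun, Junb, Jund, Atf3, Maff and Batf), 3 EGR genes, 3 NR4A genes, 6 dual-specificity phosphatase (DUSP) genes, 5 Sprouty and Spred genes, the ETS factor genes Etv4 and Etv5, 3 IER genes, and Myc, Phlda1 and Klf6. They were chosen by gene symbol, with earlier results of these data known. All 35 were found, each as a single entry, among the 23284 symbols of the mouse tables. In capitals, all were also found as single entries among the 25548 symbols of the eosinophil tables. RNA was sequenced in 18 libraries of 6 groups (n = 3 each). Memory T helper 2 (Th2) cells with high ST2, the IL-33 receptor, from BALB/c mice were cultured for 3 days with IL-2 alone (libraries 1, 3 and 5) or with IL-2 and IL-33 (libraries 2, 4 and 6), so both groups had received IL-2. Eosinophils were cultured for 3 days without or with amphiregulin, a ligand of the epidermal growth factor receptor (sample numbers 2, 3 and 4 in each group). Whole lung came from OVA-treated BALB/c mice, either wild type (replicates 1 to 3) or a knockout labelled dGATA (replicates 1 to 3), a name that the labels do not spell out, and the design text of the series speaks of house dust mite where these labels say OVA. Doses, ages and the number of animals behind a library were not given in the sources used here, nor whether replicates were separate animals or cultures, so the spread behind each p-value is that between libraries and may be technical.

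Immediate early genes are transcribed within minutes of a signal at the cell surface, without new protein synthesis, because the factors that switch them on are already present and are activated by kinases such as ERK, p38 and JNK. Many encode transcription factors: Fos and Jun proteins pair as AP-1, EGR proteins are zinc finger factors, and NR4A proteins are orphan nuclear receptors that rise with antigen receptor signalling in T cells. The feedback genes act on the same pathway, as DUSP enzymes remove phosphate from MAP kinases, and Sprouty and Spred proteins restrain Ras and Raf. A library taken after 3 days of culture shows levels at that time and holds no record of the first hours.

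The promoter letters of 4 members are shown because these genes differed in a comparison described below or carry the boxes by which serum response factor and CREB are known to switch on immediate early genes. RefSeq promoter windows of GRCm38.p6, from 250 bases before to 50 after a transcript start, existed for 26 of the 35 members (33 windows), and lay beside 32851 windows of all genes. Capitals mark the motif: an NF-kB site in Ier3 (chr17:35821463-35821662, plus strand), a CRE in Dusp1 (chr17:26508523-26508672, minus strand), a pair of adjoining CArG boxes in Dusp5 (chr19:53529057-53529086, plus strand) and 1 CArG box in Egr2 (chr10:67537787-67537816, plus strand). The Ier3, Dusp1 and Egr2 stretches overlap no annotated exon, and the Dusp5 stretch overlaps 1.
Ier3: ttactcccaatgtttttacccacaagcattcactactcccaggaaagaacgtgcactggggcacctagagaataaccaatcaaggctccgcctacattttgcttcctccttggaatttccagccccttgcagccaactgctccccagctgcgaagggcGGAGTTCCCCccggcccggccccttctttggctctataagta
Dusp1: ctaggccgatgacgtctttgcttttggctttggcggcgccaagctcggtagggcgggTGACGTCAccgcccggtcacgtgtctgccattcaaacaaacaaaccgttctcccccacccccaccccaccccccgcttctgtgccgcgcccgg
Dusp5: aaatacCCATATTTGGCCTTATATGGgcac
Egr2: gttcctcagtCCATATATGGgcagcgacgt

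Both strands of every window were searched. A CArG box, the serum response factor site, was in 15.2% of the members' windows and in 1.63% of all windows. These windows belonged to 2 of the 26 members with a window, Egr2 and Dusp5. Several Egr2 windows overlap and hold the same box, which was therefore counted more than once. The CRE (TGACGTCA) was in 6.1% (Maff and Dusp1) against 1.79%, and the NF-kB site in 21.2% (Fos, Fosb, Fosl2, Maff, Egr2, Nr4a1 and Ier3) against 8.46%. The EGR site (GCGTGGGCG) was in 3.0% (Maff) against 0.61%. No member window held the AP-1 site (TGANTCA, in 7.81% of all windows) or the NR4A site (AAAGGTCA, in 1.51%). The CRE letters do not contain the AP-1 letters. These matches are descriptions of letters and were not compared with binding data.

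Values are FPKM, reads scaled by transcript length and by library size, so levels of different genes can be compared within a table. Relative depth ran from 0.67 to 1.34 in the Th2 libraries. It ran from 0.36 to 1.0 in the eosinophil libraries and from 0.58 to 1.0 in the lung. Small RNA features held 20.15% to 21.36% of the summed FPKM with IL-2 and 12.09% to 18.15% with IL-33, without overlap. Their part in the Th2 results was not tested. They held 20.03% to 38.42% in the eosinophil libraries and 3.99% to 5.12% in the lung. Th2 libraries 5 and 6 had the lowest depth of their comparison and titles in a different spelling, and results that change without them are given both ways. All 9 T cell markers present in the mouse tables were expressed in the Th2 groups, with a summed level of 1340.0 to 1612 FPKM under IL-2 and 2325 to 2403 with IL-33, while the 10 macrophage markers present summed to at most 11.7 FPKM. Sums of 5 eosinophil markers (0.670 to 1.73 and 5.82 to 8.02), of endothelial markers (23.7 to 41.7 and 13.1 to 19.6), of 3 erythroid markers (7.79 to 13.5 and 0.0585 to 3.77) and of 7 Th2 markers (9171 to 10010.0 and 13640.0 to 22260.0) also did not overlap between the groups, and their part in the Th2 results was not tested. The eosinophil sums came mainly from Ccr3 (means 1.18 and 6.95 FPKM), with Epx and Prg2 at 0 in every Th2 library. The endothelial sums came mainly from Pecam1 (means 30.6 and 15.5 FPKM) and the erythroid sums from Hba-a1 (means 10.1 and 2.07 FPKM). Gata1, checked for the lung labels, was at 1.65, 1.23 and 0.963 FPKM in wild-type lungs and at 0.126, 0.134 and 0.314 in dGATA lungs.

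The first comparison asked how memory Th2 cells that had received IL-2 differed when IL-33 was added. With IL-33 the transcripts of Ier3, Dusp10, Etv5, Nr4a1, Nr4a2, Batf, Phlda1 and Dusp1 were each called higher and rose more than 2-fold. Those of Atf3, Dusp2, Myc and Egr3 were each more than 2-fold lower, though the Myc and Egr3 calls were lost in some settings. The immediate early genes were thus not raised together 3 days into the culture. Of the 35 members, 32 passed the filter of at least 1 FPKM in at least 3 of the 6 libraries and were tested as log2(FPKM + 1), which shrinks the differences of genes near or below 1 FPKM. Of those, 11 were higher and 7 lower at a limma adjusted p below 0.05, among 10296 genes of which 16.3% were higher and 25.7% lower. The groups did not overlap for 19 of the 32, 11 higher and 8 lower, against 56.7% of all genes tested. The median log2 difference of the 32 was 0.15 and that of all genes tested -0.11. As shares of the 32, 34.4% were called higher, 21.9% lower and 59.4% did not overlap, so that the last 2 lay near the shares of all genes.

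**Figure D1:**
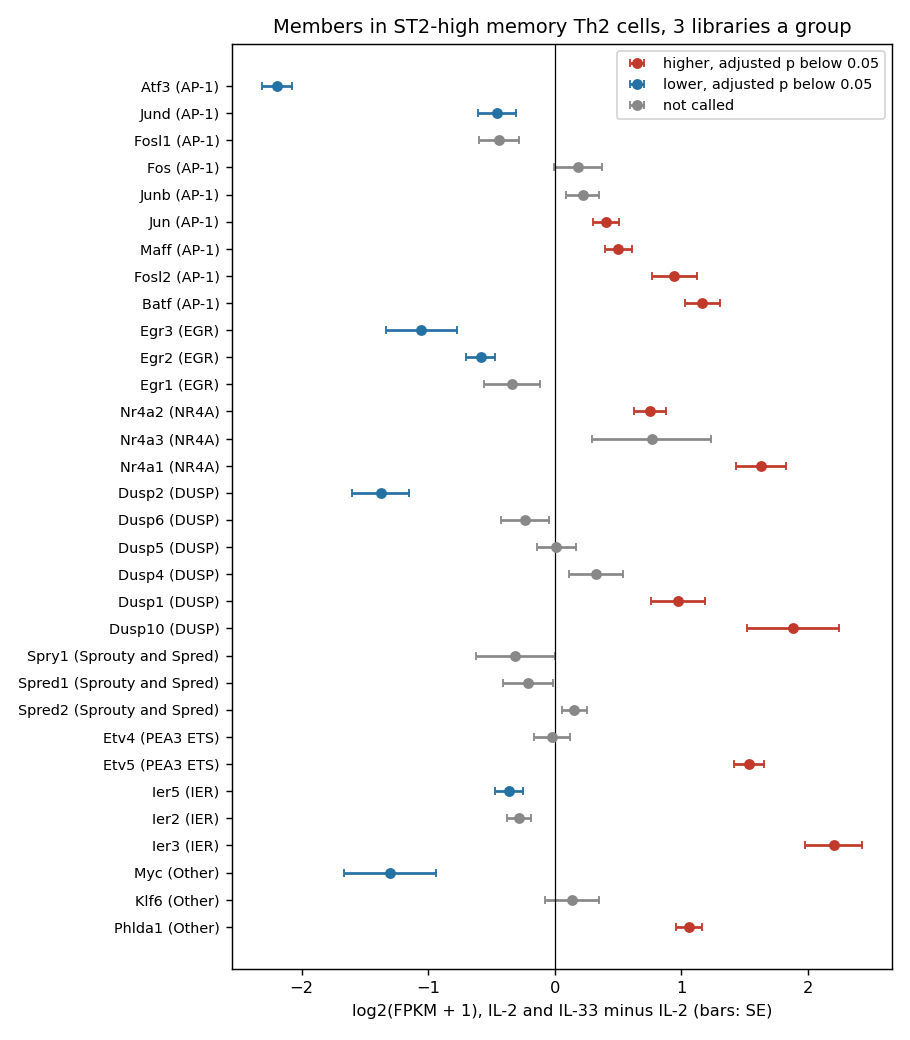
Difference in log2(FPKM + 1) between Th2 cells with IL-2 and IL-33 and Th2 cells with IL-2 alone for the 32 tested members, grouped by family; points are group differences, bars are standard errors and colours give the limma call. Ier3 lies farthest to the right at 2.21 and Atf3 farthest to the left at -2.19, and called members of the AP-1, DUSP and IER families lie on both sides of 0.

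Of 9 tested AP-1 genes 4 were higher (Batf, Fosl2, Maff and Jun) and 2 lower (Atf3 and Jund). The shares of all genes tested, 16.3% higher and 25.7% lower, stand beside this count and those of the families below. Batf encodes a bZIP partner of Jun proteins that lymphocytes need for several helper lineages. It stood at 136, 147 and 174 FPKM in IL-2 libraries 1, 3 and 5, and at 318, 309.7 and 401 FPKM in IL-33 libraries 2, 4 and 6. Every IL-33 library was above every IL-2 library, and Batf rose 2.25-fold (log2 difference 1.17, SE 0.140, adjusted p = 0.00104, limma, chr12:85686720-85709087, mm10). Fosl2, the gene of the Fos-related protein FRA2, was at 19.7, 19.9 and 13.4 FPKM and with IL-33 at 30.1, 32.7 and 41.3 FPKM. It rose in all 3 IL-33 libraries (log2 0.94, SE 0.180, adjusted p = 0.00665, limma), by less among libraries 1 to 4 alone (log2 0.64). Maff, a small MAF protein gene, rose from 10.5, 10.6 and 8.35 FPKM to 13.3, 14.7 and 14.8 FPKM (log2 0.50, SE 0.110, adjusted p = 0.0112, limma).

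Jun, the founding member of its family, was at 18.7, 19.9 and 20.8 FPKM with IL-2 and at 24.5, 30.1 and 25.1 FPKM with IL-33. It was called higher (log2 0.40, SE 0.1001, adjusted p = 0.0175, limma), but not without IL-2 library 1, IL-2 library 3 or IL-33 library 4, where limma adjusted p was 0.0625, 0.0539 and 0.0554. Atf3 encodes a stress-induced bZIP protein that represses many of its targets. Its level was 73.9, 84.9 and 97.5 FPKM with IL-2 and 17.1, 16.7 and 19.7 FPKM with IL-33. The groups lay far apart, and Atf3 fell 4.79-fold (log2 -2.19, SE 0.1196, adjusted p = 3.76e-05, limma, chr1:191170297-191183333), the smallest p among the members. Jund fell from 66.1, 67.5 and 88.8 to 48.4, 62.9 and 49.7 FPKM (log2 -0.46, SE 0.150, adjusted p = 0.0463, limma). This was not called in 10 of 14 alternative settings (highest adjusted p = 0.141, limma, without IL-33 library 2). Among them was the removal of any single library other than IL-33 library 4. The call was also lost without libraries 5 and 6 together (log2 -0.27, adjusted p = 0.0733, limma).

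The AP-1 genes that did not pass included Junb, the most abundant of them, at 245, 259 and 267 FPKM with IL-2 and 254, 299 and 352 FPKM with IL-33 (log2 0.22, adjusted p = 0.205, limma). Fos itself was at 15.0, 17.7 and 10.6 FPKM and at 16.7, 18.7 and 13.6 FPKM, with overlapping groups (log2 0.18, adjusted p = 0.464, limma). Fosl1, the gene of FRA1, was at 13.4, 13.5 and 11.7 FPKM and at 8.91, 7.40 and 11.8 FPKM (log2 -0.44, adjusted p = 0.0598, limma). Its IL-33 library 6 lay among the IL-2 libraries, and among libraries 1 to 4 Fosl1 was lower (log2 -0.66, adjusted p = 0.000496, limma). Fosb stayed below the filter, at 0.627 to 1.08 FPKM with IL-2 and 0.441 to 0.830 FPKM with IL-33.

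In the EGR family none of 3 genes was higher with IL-33. Egr2 encodes a zinc finger factor that limits T cell activation. It was at 81.0, 87.8 and 91.0 FPKM with IL-2 and at 51.6, 54.4 and 67.2 FPKM with IL-33, without overlap. It fell (log2 -0.58, SE 0.115, adjusted p = 0.00741, limma, chr10:67537869-67542188), and was not called when the lung and Th2 libraries were fitted together (adjusted p = 0.296, limma). Egr3, a close relative of Egr2, was at 13.8, 16.8 and 28.6 FPKM and at 6.56, 8.45 and 11.2 FPKM. It fell 2.26-fold (log2 -1.05, SE 0.279, adjusted p = 0.0221, limma), and was not called without IL-33 library 2 or 4 (adjusted p = 0.0785 and 0.0689, limma) or with no filter (adjusted p = 0.0523, limma). Egr1, the most abundant of the EGR genes, was at 180.0, 194 and 121 FPKM and at 131, 157 and 100.9 FPKM. The groups overlapped because IL-2 library 5 was low, while library 6 lay below every IL-2 library (log2 -0.34, adjusted p = 0.254, limma), and among libraries 1 to 4 Egr1 was lower (log2 -0.38, adjusted p = 0.0135, limma).

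The NR4A genes lay above 0 in all 3 cases. Nr4a1, known as Nur77 and widely used as a reporter of antigen receptor signalling, was at 15.5, 17.98 and 20.0 FPKM with IL-2 and at 45.9, 52.0 and 77.3 FPKM with IL-33. It rose 3.27-fold, with the lowest IL-33 library above the highest IL-2 library (log2 1.63, SE 0.196, adjusted p = 0.00106, limma, chr15:101266846-101274794). Nr4a2, or Nurr1, was low, at 0.663, 0.953 and 1.03 FPKM and at 2.04, 1.96 and 2.51 FPKM. It rose by 0.75 on the log2 scale (SE 0.125, adjusted p = 0.00384, limma), or by 1.22 with a pseudocount of 0.1 in place of 1. Without libraries 5 and 6 Nr4a2 was below the filter and was not tested. Nr4a3, or Nor1, was at 6.42, 7.10 and 19.2 FPKM and at 11.96, 13.5 and 30.8 FPKM. IL-2 library 5 lay above IL-33 libraries 2 and 4, so the groups overlapped, while library 6 lay above every IL-2 library, and Nr4a3 did not pass (log2 0.77, SE 0.470, adjusted p = 0.223, limma). Among libraries 1 to 4 it was higher (log2 0.82, adjusted p = 0.000117, limma).

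Of 6 DUSP genes, 2 were higher and 1 lower. Dusp10 encodes a phosphatase for p38 and JNK. It was at 8.30, 7.65 and 2.41 FPKM with IL-2, library 5 being the lowest, and at 21.3, 22.9 and 24.8 FPKM with IL-33. Dusp10 rose 3.76-fold (log2 1.88, SE 0.361, adjusted p = 0.00689, limma, chr1:184034461-184075636), and by log2 1.36 without libraries 5 and 6. Dusp1, whose CRE is shown above and whose product is a nuclear phosphatase for p38, JNK and ERK, rose from 5.43, 7.90 and 4.32 FPKM to 12.2, 15.1 and 9.90 FPKM (log2 0.97, SE 0.216, adjusted p = 0.0119, limma, chr17:26505591-26508472). Dusp2, also called PAC1 and abundant in lymphocytes, was at 236, 244 and 389.6 FPKM with IL-2 and at 92.2, 102 and 135 FPKM with IL-33. No IL-33 library reached the lowest IL-2 library, and Dusp2 fell 2.65-fold (log2 -1.37, SE 0.226, adjusted p = 0.00374, limma, chr2:127336159-127338377).

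Dusp4, Dusp5 and Dusp6, whose products act on ERK, did not pass. Dusp6, the cytoplasmic ERK phosphatase gene, was at 243, 243 and 233.8 FPKM and at 232, 246 and 149 FPKM (log2 -0.23, SE 0.187, adjusted p = 0.342, limma). Dusp5, which encodes a nuclear ERK phosphatase, was at 49.0, 54.4 and 62.8 FPKM and at 58.3, 65.4 and 45.1 FPKM (log2 0.01, SE 0.155, adjusted p = 0.953, limma), and Dusp4 was at 63.5, 59.9 and 87.0 FPKM and at 72.3, 77.9 and 117 FPKM (log2 0.33, SE 0.214, adjusted p = 0.2498, limma). Library 5 and library 6 held the highest or lowest value of their group for each of these genes. Without them Dusp4 (log2 0.28, adjusted p = 0.0151, limma) and Dusp5 (log2 0.25, adjusted p = 0.0372, limma) were higher.

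No tested gene of the Sprouty and Spred family passed. Spry1, an inhibitor of Ras signalling and the only Sprouty gene above the filter, was at 15.6, 18.3 and 26.6 FPKM and at 11.5, 12.9 and 25.6 FPKM (log2 -0.31, adjusted p = 0.447, limma). It was lower among libraries 1 to 4 (log2 -0.44, adjusted p = 0.00497, limma). Spred1 ranged from 4.21 to 7.91 FPKM and Spred2 from 6.26 to 8.28 FPKM over the 6 libraries (log2 -0.21 and 0.16). Spry2 stood at most at 0.232 FPKM, and Spry4 at 0.171 to 0.230 and at 0.242 to 0.508 FPKM, without overlap but below the filter (exact two-sided permutation p = 0.1, the lower limit with 3 libraries a group).

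The ETS pair split. Etv5, an ETS factor gene of the PEA3 group that ERK signalling induces in many tissues, was at 3.95, 3.92 and 3.28 FPKM with IL-2 and at 12.1, 14.7 and 11.3 FPKM with IL-33. It rose 3.42-fold (log2 1.53, SE 0.1203, adjusted p = 0.000171, limma, chr16:22381313-22439570). Its relative Etv4 ranged from 2.53 to 3.63 FPKM and from 2.44 to 3.32 FPKM (log2 -0.02, adjusted p = 0.925, limma).

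Ier3 showed the largest rise of the 35 genes. Its product, also called IEX-1, modulates cell survival and ERK activity, and the gene is a known NF-kB target, whose site shown above is a match of letters. Levels were 33.2, 40.2 and 38.7 FPKM with IL-2 and 139.9, 150.3 and 256 FPKM with IL-33. The lowest IL-33 library was more than 3 times the highest IL-2 library, and Ier3 rose 4.88-fold (log2 2.21, SE 0.226, adjusted p = 0.000568, limma, chr17:35821713-35822911). The other IER genes, which encode nuclear proteins, lay below 0. Ier5 fell from 82.8, 84.4 and 88.5 to 57.4, 66.8 and 75.5 FPKM (log2 -0.36, SE 0.110, adjusted p = 0.0355, limma). It was not called in 9 of 14 settings, among them the removal of any single library other than IL-33 library 6 (highest adjusted p = 0.152, limma, after rescaling to TPM; 0.0933 without IL-33 library 4). Ier2 was at 105, 116 and 126 FPKM and at 87.99, 101.3 and 94.9 FPKM, without overlap, and did not pass (log2 -0.28, adjusted p = 0.0538, limma), but passed with libraries 5 and 6 as a block (adjusted p = 0.0275, limma).

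Myc, the growth regulator gene, was at 188, 204 and 266 FPKM with IL-2 and at 59.4, 68.5 and 162 FPKM with IL-33. IL-33 library 6 was far above the other 2 of its group yet below all IL-2 libraries, and Myc fell 2.27-fold (log2 -1.30, SE 0.362, adjusted p = 0.0261, limma, chr15:61985341-61990361). The call was lost without any single one of IL-2 library 3 or 5 or IL-33 library 2 or 4 (adjusted p = 0.0550 to 0.0907, limma) or with no filter (adjusted p = 0.0612, limma), and held without libraries 5 and 6 together (log2 -1.60, adjusted p = 2.56e-06, limma). Phlda1, a gene of a PH-domain protein induced by T cell activation, rose from 34.9, 34.95 and 31.1 to 66.4, 80.2 and 67.8 FPKM (log2 1.06, SE 0.0998, adjusted p = 0.000392, limma). Klf6, a zinc finger factor gene, was at 58.2, 58.1 and 39.6 FPKM and at 63.1, 67.0 and 42.5 FPKM (log2 0.14, adjusted p = 0.624, limma), with library 5 and library 6 the lowest of each group.

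The remaining 12 called members, other than Jun, Jund, Egr2, Egr3, Ier5 and Myc, kept their call in each of the 14 settings run, or 12 for Nr4a2, which was below the filter in the others. Without libraries 5 and 6 the number of members called was 22, beside 19.6% of all genes higher and 36.4% lower. Of these members 13 were higher and 9 lower, and Jund and Nr4a2 were not among them. With libraries 5 and 6 kept and fitted as a block, an alternative added after seeing the data, 24 members were called, 13 higher and 11 lower, beside 20.9% of all genes higher and 35.6% lower. The 6 called there in addition were Nr4a3 and Dusp4 (higher) and Egr1, Fosl1, Ier2 and Spry1 (lower). Of all genes called, 38.8% were higher as deposited, 55.6% after rescaling to TPM and 51.5% under median-of-ratios scaling, while the members called were 11 higher and 7 lower, or 11 and 5 under each rescaling. The median of all genes tested moved from -0.11 to -0.01 with either rescaling.

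Within families the composition of the transcripts differed between the 2 Th2 groups. Dusp2 made up 42.8% ± 6.2 (SD, n = 3) of the FPKM of the 6 DUSP genes with IL-2 and 22.1% ± 5.2 with IL-33, with Dusp6 the largest share in the latter at 41.6% ± 9.3. Ier3 went from 15.7% ± 0.9 to 52.1% ± 7.0 of the IER family, and Etv5 from 56.0% ± 7.4 to 81.3% ± 4.3 of the ETS pair. Fosl2 went from 38.4% ± 1.7 to 56.6% ± 4.2 of the Fos subunits, and Fosl1 from 28.5% ± 3.3 to 15.2% ± 2.5. Junb held 73.3% ± 2.1 and 78.8% ± 3.3 of the Jun subunits. The summed FPKM of all 35 genes was 2194 ± 177 with IL-2 and 2206 ± 235 with IL-33, so the total differed by less than the spread between libraries.

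**Figure D2:**
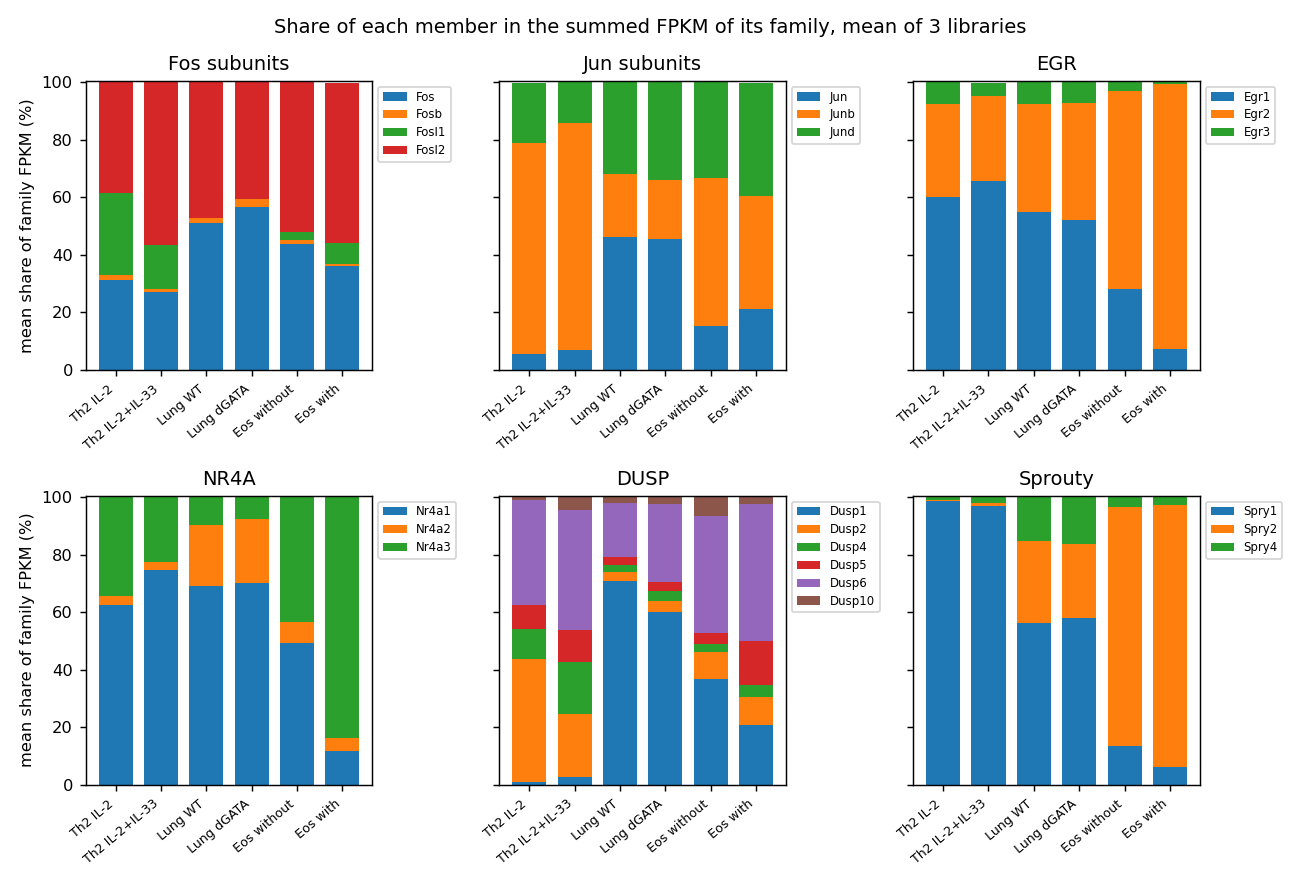
Mean share (percent) of each gene in the summed FPKM of its family in the 6 groups, for Fos subunits, Jun subunits, EGR, NR4A, DUSP and Sprouty genes; each bar adds to 100% and is the mean of 3 libraries. Junb has the largest part of the Jun bar in Th2 cells and Jun in lung, Dusp1 the largest part of the DUSP bar in lung, and Spry1 fills nearly all of the Sprouty bar in Th2 cells but SPRY2 most of it in eosinophils.

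Genes around the members were taken from lists of pathway components, chosen with earlier results of these data known. In the ERK cascade list, IL-33 went with 6 higher and 4 lower genes of 24 tested, beside the 16.3% and 25.7% of all genes given above. Nras, a Ras gene (log2 0.60), the Ras exchange factor gene Sos1 (0.77) and the ERK1 gene Mapk3 (0.43) rose, and the MEK1 gene Map2k1 fell (-0.70). Of 17 p38 and JNK cascade genes 5 were higher and 5 lower. Map2k6, the gene of a p38 kinase kinase, went from a mean of 1.55 to 7.45 FPKM (log2 1.72, adjusted p = 0.000110, limma), and Rps6ka5, which encodes the nuclear kinase MSK1, from 3.14 to 24.9 FPKM (log2 2.72, adjusted p = 0.00192, limma).

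Of 11 other bZIP factor genes 6 were higher and 2 lower. The shares of all genes tested, 16.3% higher and 25.7% lower, stand beside this count and those of the lists that follow. Among them the AP-1 repressor gene Jdp2 rose from a mean of 2.23 to 23.1 FPKM (log2 2.98, adjusted p = 0.000544, limma). The cAMP response modulator gene Crem (log2 1.87) and Nfil3 (1.98) also rose, and Batf2 fell (-1.62). Of 6 other phosphatase and feedback genes 4 were higher and 0 lower, led by Dusp16, a JNK phosphatase gene (log2 1.06), and Spred3 (1.31). Of 17 other immediate early genes 4 were higher, among them Trib1 (log2 1.00), and 4 lower, among them the antiproliferative gene Btg2 (-0.46). Of 3 tested genes of ErbB receptors and ligands, Areg rose and Hbegf, the gene of another epidermal growth factor receptor ligand, fell from a mean of 74.4 to 17.6 FPKM (4.22-fold, adjusted p = 0.000532, limma).

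The Th2 and lung tables share gene models, so levels were set side by side as a description, without a test between a purified cell type and a whole organ. In bulk samples, fewer cells of a type and less RNA per cell cannot be told apart. For 17 members every Th2 library was above every lung library, for 6 every lung library was above every Th2 library, and for 12 the ranges overlapped. The same counts were not made over all genes, so they do not show whether the members differ from other genes in this. Genes higher in Th2 cells included all 3 EGR genes, Batf and Junb, Dusp2, Dusp4, Dusp5 and Dusp6, and Myc. Dusp2 ranged from 92.2 to 389.6 FPKM in Th2 cells and from 1.39 to 7.86 FPKM in lung, and Egr1 from 100.9 to 194 and from 4.36 to 10.5 FPKM. Fosl1 was at 7.40 to 13.5 FPKM in Th2 cells and at most at 0.122 FPKM in lung.

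The 6 genes higher in lung were Jun, Dusp1, Spry2, Spry4, Spred1 and Etv5. Dusp1 ranged from 54.5 to 129.7 FPKM in lung and from 4.32 to 15.1 FPKM in Th2 cells, and held 70.9% ± 2.3 (SD, n = 3) of the DUSP family in wild-type lung against 0.9% ± 0.4 in Th2 cells with IL-2. Jun was at 65.2 to 86.0 FPKM against 18.7 to 30.1 FPKM. Etv5, which lung alveolar epithelium is known to express, was at 40.5 to 51.8 FPKM in lung and at 3.28 to 14.7 FPKM in Th2 cells. Spry2 was at 11.1 to 19.7 FPKM in lung, whereas Spry1 held 98.5% ± 0.7 of the Sprouty transcripts of Th2 cells with IL-2. Across the 4 mouse groups Ier3 was highest in Th2 cells with IL-33 and lowest in Th2 cells with IL-2, with the lung groups (45.3 to 69.8 FPKM) between them.

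**Figure D3:**
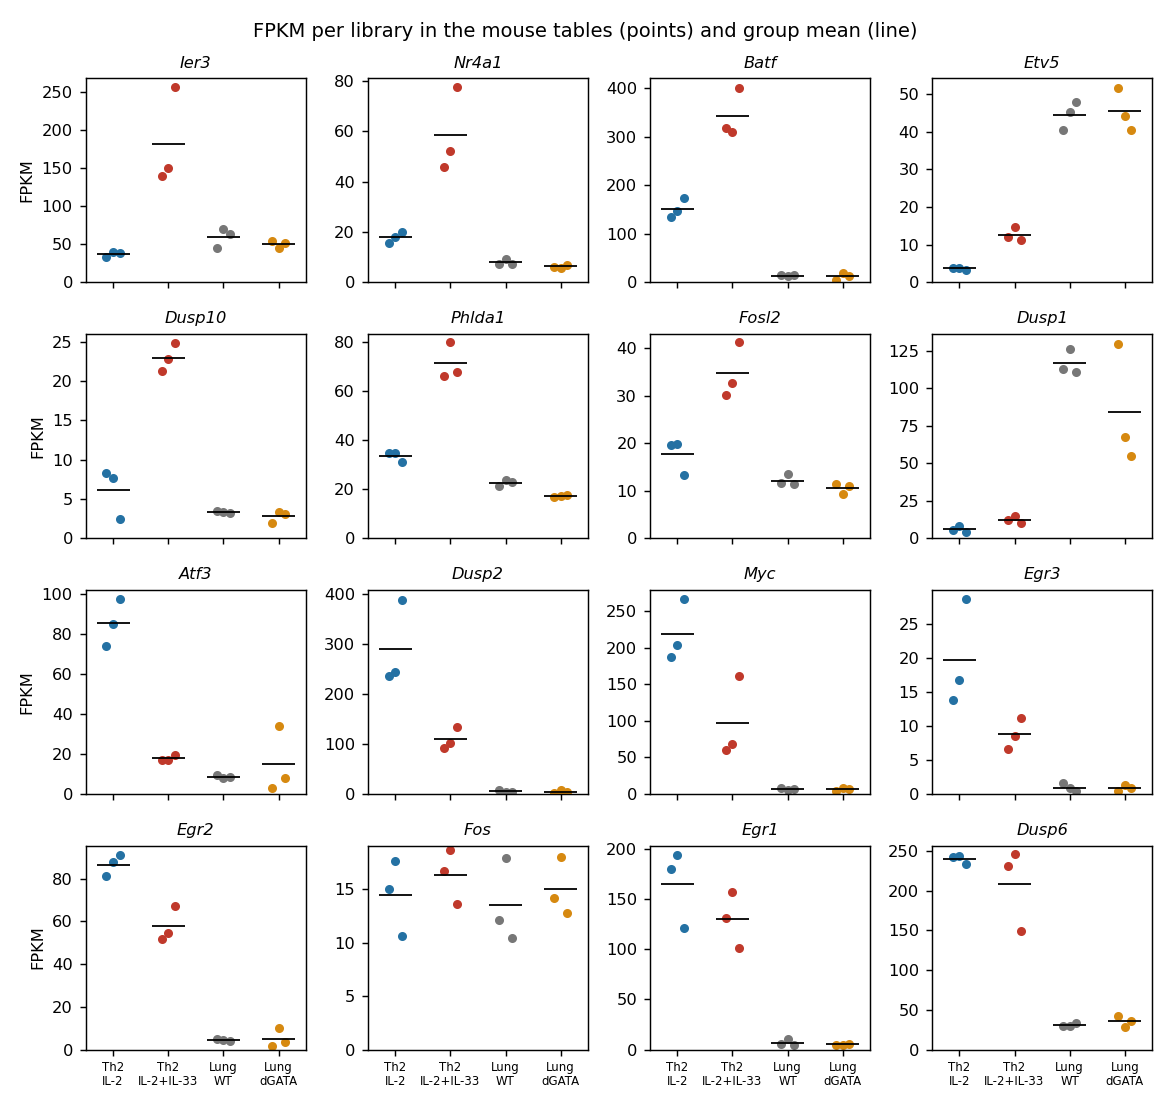
FPKM of 16 members in each of the 12 mouse libraries, grouped as Th2 with IL-2, Th2 with IL-2 and IL-33, wild-type lung and dGATA lung; points are libraries and each panel has its own linear axis from 0. Dusp2, Egr1 and Myc are high in the Th2 groups and near 0 in lung on their axes, and Dusp1 and Etv5 show the opposite order.

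The second comparison asked what amphiregulin changes in eosinophils. Although the labels give mouse and BALB/c, the eosinophil tables list human symbols and coordinates (genes reach position 249213345 of chromosome 1, and 195176715 in the mouse tables), so that they were read as human. All 7 eosinophil markers were present, with a summed level of 1384 to 4732 FPKM without and 1110.0 to 2779 FPKM with amphiregulin. All 7 neutrophil markers present in the tables (8034 to 19860.0 and 6739 to 13730.0 FPKM), all 10 macrophage markers (702 to 3844 and 497 to 1758 FPKM) and all 9 T cell markers (231 to 534 and 133 to 350.2 FPKM) were also above 0. Dendritic cell markers (6 present) summed to 114 to 201 FPKM without and 341 to 397 FPKM with amphiregulin, without overlap, and the part of these cells in the results was not tested. EGFR, the receptor gene of amphiregulin, was listed at 0 in all 6 libraries.

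In the fit over groups 29 of 35 members were tested and 0 passed (smallest limma adjusted p = 0.898), among 12616 genes of which 0.0317% were higher and 0.174% lower. Unadjusted p was below 0.05 for 2 of the 29 members, BATF and DUSP5, and for 3.1% of all genes. The groups did not overlap for 3 of the 29, BATF and DUSP5 (higher) and IER3 (lower), against 6.7% of all genes tested. Libraries differed strongly between sample numbers, and libraries of equal number deviated together (correlations 0.399, 0.356 and 0.669 after removing group means). Numbers 2 and 3 also correlated across (0.308 and 0.28), so mainly number 4 stood apart. The labels do not say what a number stands for, and the pairs below are libraries of equal number. With the sample number as a replicate block 2 members were called, EGR2 and NR4A3, both higher, beside 0.531% of all genes higher and 0.587% lower.

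EGR2 was at 25.4, 24.1 and 4.90 FPKM without amphiregulin in samples 2, 3 and 4, and at 78.8, 81.8 and 17.8 FPKM with it. It was 3.10-, 3.40- and 3.64-fold higher in the 3 pairs although the groups overlapped, since sample 4 was low in both (log2 1.66, SE 0.790 and adjusted p = 0.999 without the block, SE 0.163 and adjusted p = 0.00866 with it, limma). EGR2 made up 68.9% ± 31.2 (SD, n = 3) of the EGR family without and 92.2% ± 7.7 with amphiregulin. NR4A3 was at 9.03, 15.8 and 0.511 FPKM and at 29.6, 37.6 and 2.91 FPKM. It was 3.27-, 2.38- and 5.70-fold higher in the pairs (log2 1.39, block SE 0.199, adjusted p = 0.0312 with the block, limma). Its relative NR4A1 was lower in all 3 pairs, at 7.26, 9.80 and 1.89 FPKM without and 1.14, 3.57 and 0.970 FPKM with amphiregulin, and did not pass (log2 -1.25, adjusted p = 0.150 with the block, limma).

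Both calls in the blocked fit were lost without sample 3, where 9 genes in all were called, at an adjusted p of 0.0917 for EGR2 (log2 1.63) and 0.123 for NR4A3 (log2 1.49, limma with block), and both held without sample 2. Sample 4 had the lowest macrophage sums, the highest eosinophil sums and the lowest relative depth (0.44 without and 0.36 with amphiregulin). Without it 8 members were called in the blocked fit, beside 3.07% of all genes higher and 1.68% lower. DUSP5 (log2 2.35), EGR2, NR4A3, MAFF (1.38), MYC (1.01), BATF (0.98) and JUN (0.91) were higher and NR4A1 (-1.59) lower. Blocked fits that leave out a sample keep few libraries, so their p-values lean on the spread pooled over all genes. For EGR2 the SE without sample 4 was 0.296, larger than with all samples, while the adjusted p was smaller (1.53e-06, limma with block). On TPM, where the median of all genes was 0.20 in place of 0.02, EGR2 alone was called with the block. Macrophage marker sums were lower with amphiregulin in every pair, from 3844, 3614 and 702 FPKM to 1281, 1758 and 497 FPKM, and dendritic sums were higher in every pair, at 172, 114 and 201 FPKM and at 397, 353 and 341 FPKM. Erythroid sums, highest in sample 3, were also lower in every pair (1576, 49900.0 and 13130.0 FPKM without and 972, 27720.0 and 6930.0 FPKM with amphiregulin), as were those of eosinophil (1647, 1384 and 4732 FPKM and 1110.0, 1369 and 2779 FPKM), T cell, Th2, neutrophil, endothelial, and mast cell and basophil markers. By group means without and with amphiregulin, single genes did not all follow their sums. In the macrophage list MRC1 (1.82 and 55.3 FPKM), C1QB (29.2 and 70.9) and CSF1R (39.75 and 49.53) rose, and the rest fell. In the eosinophil list PRG2 (31.35 and 84.89 FPKM), EPX (0.668 and 8.81) and SIGLEC5 (17.3 and 20.8) rose, and the rest fell. MPO and ELANE rose in the neutrophil list, where the rest fell. The part of the cells of these lists in the EGR2 and NR4A3 results was not tested.

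A further set, DUSP5, BATF and IER3, is given by its values, since the groups did not overlap. DUSP5, the nuclear ERK phosphatase gene, was at 2.21, 3.41 and 3.98 FPKM without amphiregulin and at 19.4, 17.1 and 6.19 FPKM with it. The ratio of the libraries was 8.79 in sample 2, 5.01 in sample 3 and 1.56 in sample 4 (log2 1.75, SE 0.441, adjusted p = 0.898, or 0.127 with the block, limma). BATF was at 13.7, 8.76 and 12.5 FPKM and at 27.6, 18.4 and 27.5 FPKM, a difference of 2.02 to 2.20-fold in each pair that missed the threshold (log2 1.01, SE 0.270, adjusted p = 0.976, or 0.0520 with the block, limma). IER3 was at 78.3, 78.2 and 76.3 FPKM and at 58.6, 54.5 and 62.1 FPKM (log2 -0.41, SE 0.192, adjusted p = 0.999, or 0.396 with the block, limma).

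Over the 29 tested members, 12 were higher with amphiregulin in 3 of 3 pairs (41.4%, against 17.6% of all genes tested) and 7 lower in 3 of 3 (24.1%, against 14.9%). Those higher were FOSL1, JUN, JUND, MAFF, BATF, EGR2, NR4A3, DUSP4, DUSP5, SPRED1, SPRED2 and IER5, and those lower ATF3, EGR1, NR4A1, DUSP1, DUSP10, IER2 and IER3. Among the feedback inhibitors SPRED1 was 3.05 to 3.56-fold and SPRED2 1.41 to 2.63-fold higher in the pairs. DUSP6, the most abundant DUSP gene on average here, was at 16.4, 35.8 and 48.0 FPKM and at 28.0, 30.7 and 124 FPKM, in no common direction. FOSB, EGR3, NR4A2, SPRY1, SPRY4 and ETV4 were below the filter. Of the pathway lists 0 genes passed in the fit over groups (0 of 26 ERK cascade genes and 0 of 18 p38 and JNK genes among them). With the block KLF4, a zinc finger factor gene of the other immediate early list, rose from a mean of 0.916 to 4.84 FPKM (adjusted p = 0.0303, limma).

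**Figure D4:**
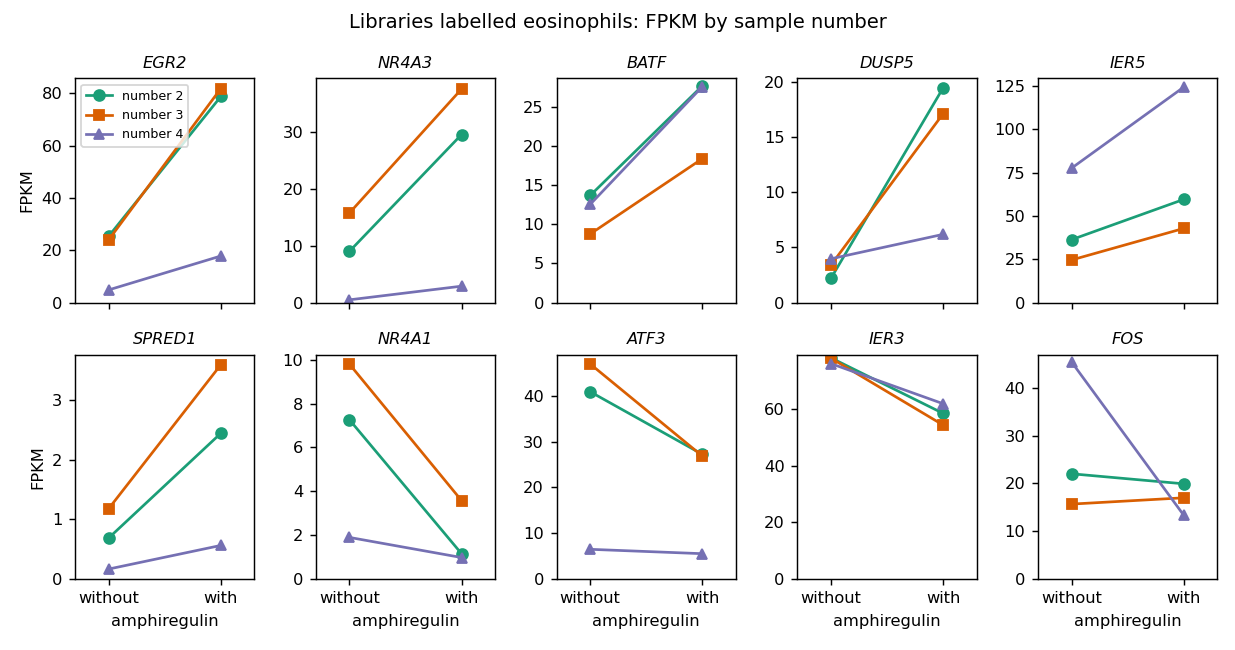
FPKM of 10 members in the eosinophil libraries, without and with amphiregulin, with lines joining libraries of equal sample number (2, 3 and 4); axes are linear from 0. EGR2 and NR4A3 are higher with amphiregulin in all 3 samples from different starting levels, BATF is about 2-fold higher in each, and DUSP5 differs least in sample 4.

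The third comparison asked how the lungs of dGATA mice differed from those of wild-type mice after OVA. The 35 genes did not separate the lungs: 30 were tested and 0 passed (smallest limma adjusted p = 0.413), among 13727 genes of which 0.0437% were higher and 0.051% lower. Unadjusted p was below 0.05 for 2 of the 30, Phlda1 and Spry2, and for 6.8% of all genes. The groups did not overlap for 3 members, all lower in dGATA, against 14.1% of all genes tested in either direction. The median log2 difference was -0.14 over the 30 members and -0.03 over all genes tested. Fosb, Fosl1, Egr3, Nr4a3 and Etv4 were below the filter.

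Phlda1 was at 21.2, 23.9 and 22.8 FPKM in wild-type replicates 1 to 3 and at 16.9, 17.2 and 17.8 FPKM in dGATA replicates 1 to 3 (log2 -0.37, SE 0.0777, adjusted p = 0.413, limma). Spry2, the Ras inhibitor gene, was at 17.6, 19.7 and 19.0 FPKM and at 17.4, 11.1 and 13.8 FPKM, with dGATA replicate 1 just under the lowest wild-type lung (log2 -0.41, SE 0.157, adjusted p = 0.706, limma). Nr4a1 was at 7.40, 9.23 and 7.29 FPKM and at 6.26, 5.59 and 7.07 FPKM (log2 -0.30, SE 0.125, adjusted p = 0.726, limma). None of these was called in any of the 13 settings run (lowest adjusted p = 0.103 for Phlda1, limma).

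The dGATA lungs were spread more widely than the wild-type lungs for several members. Replicate 1 was the lowest of the 6 lungs for 11 of the 30 members and the highest for 10, and replicate 2 the lowest for 11 and the highest for 7. Over all genes tested replicate 1 was the lowest for 30.6% and the highest for 25.3%, and replicate 2 for 28.1% and 22.7%, so the same lungs were most often at the ends over all genes too. Atf3 was at 3.04, 34.2 and 7.86 FPKM in dGATA replicates 1 to 3 and at 7.92 to 9.67 FPKM in wild type. Egr2 (1.66, 9.99 and 3.57 FPKM), Dusp2 (1.39, 7.86 and 4.59 FPKM) and Batf (5.54, 19.4 and 12.6 FPKM) had the same order of replicates, replicate 2 highest and 1 lowest. Dusp1 was highest in replicate 1, at 129.7, 67.5 and 54.5 FPKM, against 111 to 126 FPKM in wild type.

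Sums of marker genes differed among the same 3 lungs. The 5 dendritic cell markers present summed to 30.3, 218.5 and 86.5 FPKM in dGATA replicates 1 to 3 and to 97.1 to 111 FPKM in wild type. The 9 T cell markers summed to 65.3, 181 and 129.9 FPKM and to 99.3 to 128 FPKM. Both lists had replicate 2 highest and replicate 1 lowest, as had Th2, NK and cytotoxic, and mast cell and basophil sums. Macrophage (4998, 5533 and 6883 FPKM), B cell, neutrophil, eosinophil, fibroblast and smooth muscle, and erythroid sums were highest in replicate 3. Epithelial and endothelial sums were highest in replicate 1. In the dendritic list Itgax ranged from 13.3 to 184 FPKM over the dGATA lungs, and Zbtb46 from 5.64 to 8.26 FPKM. The 5 eosinophil markers summed to 18.5 to 27.8 FPKM in wild type and 6.36 to 9.18 FPKM in dGATA, without overlap. Within that list Ccr3 (means 5.36 and 0.125 FPKM), Prg2 (9.70 and 0.43) and Epx (0.29 and 0) were far lower in dGATA. Siglec5 (7.81 and 6.09) and Il5ra (1.16 and 0.999) differed less, with overlapping ranges, and made up most of the dGATA sum. The part of cell composition in these values was not tested. In the pathway lists 0 of 25 ERK cascade genes, 0 of 18 p38 and JNK genes and 0 of 19 other immediate early genes passed in the lung.

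**Figure D5:**
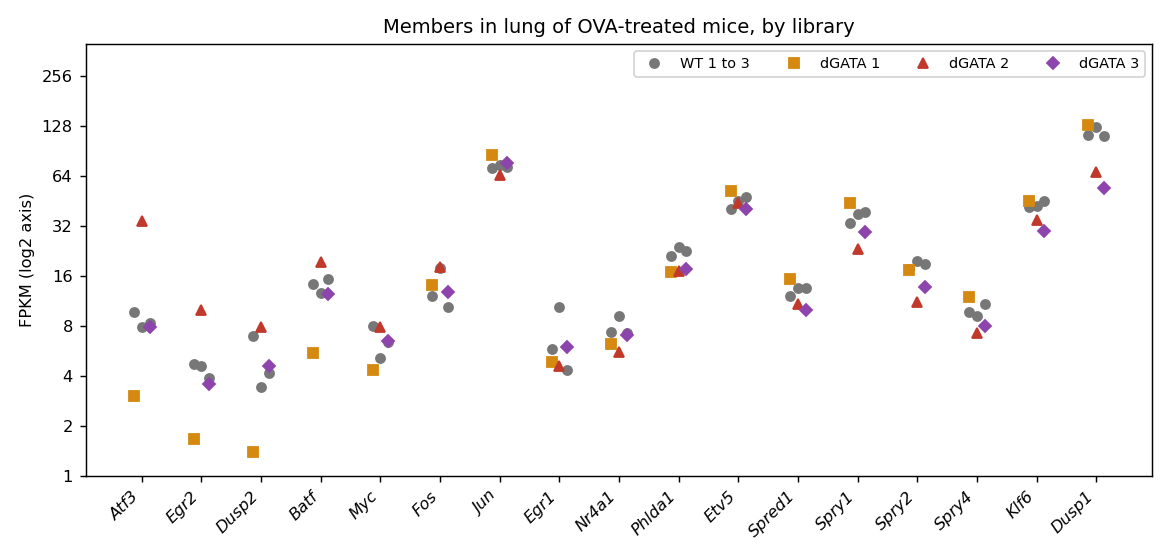
FPKM of 17 members in the 6 lungs on a log2 axis, wild type in grey and dGATA replicates 1, 2 and 3 in separate colours. For Atf3, Egr2, Dusp2 and Batf, dGATA replicates 1 and 2 lie at opposite ends with the wild-type lungs between them. For Egr1 and Fos the wild-type lungs are the more widely spread group.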

How the data were processed

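The authors deposited FPKM values per gene, made with Cufflinks 2.0.2 after TopHat 1.3.2 and Bowtie 0.12.8 with build mm10, per the submitters' processing notes. For the eosinophil tables, which hold human genes, the build was not given in the sources used here. Values were summed per symbol, and 140 symbols were left out of the human tables. Starts were raised by 1, after which 55.9% of 20565 mouse symbols had the RefSeq GRCm38 start (3.4% as deposited). No counts were used, and total depth is unknown; relative depth came from ratios of low values between libraries. Of 10 housekeeping genes 0 values were at 0 (lowest 8.09 FPKM).

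Samples were grouped by their labels. For each comparison limma 3.58.1 (trend, R 4.3.3) was fitted on log2(FPKM + 1) of its 6 libraries, over genes at 1 FPKM or more in at least 3. Calls are Benjamini-Hochberg adjusted p below 0.05 over all genes. The code was tested on simulated data. Members, lists and tests were chosen with earlier results of these data known. All 35 members are covered: those called or without overlap by library, the others by range or value, with at most 4 genes per pathway list by smallest p, of which 1 is not reported here.

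Eosinophil libraries of equal sample number correlated at 0.399, 0.356 and 0.669 after removing group means (and across numbers 2 and 3 at 0.308 and 0.28), so the replicate block is given beside that comparison (2 members called). Alternatives were another pseudocount, filter or scaling, leaving out libraries, the block, and joint fits. Protein sequences and a human genome were not used here.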

Additional observations from a re-analysis of the deposited data

How the results depend on the processing

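Of the members called or without overlap in a comparison, and EGR2 and NR4A3, none changed direction in that comparison in the settings run for them. In the Th2 cells, 232 of the values recomputed for such members kept their side of the threshold, 31 lost a call and 1 gained one (Ier2, with libraries 5 and 6 as a block). Members called numbered 18 and ranged from 14 to 19 on leaving out 1 library, and all genes called numbered 4331 and ranged from 2491 (without IL-33 library 4) to 4641 (without IL-33 library 6). Jun, Jund, Egr2, Egr3, Ier5 and Myc were the members that lost a call, and the cause was not tested.

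In the eosinophils 26 genes and 0 members were called. The count of genes was 7 with a pseudocount of 0.1, 8 with a filter of 5 FPKM and 0 without small RNA features, and ranged from 0 to 49 on leaving out 1 library. With the replicate block it was 141 genes and 2 members. Alternatives added after seeing the data changed that fit: the block without number 2 gave 221 genes and 2 members, without number 3 it gave 9 genes and 0 members, without number 4 it gave 580 genes and 8 members, on TPM 137 genes and 1 member, and without small RNA features 196 genes and 3 members (BATF, EGR2 and NR4A3). The share of called genes that were higher was 15.4% as deposited and 26.7% on TPM.

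In the lung 13 genes and 0 members were called, and 0 members in every setting. The genes called ranged from 1 to 9 on leaving out 1 library, and were 93 with the Th2 libraries in the fit. Equal numbers in the lung correlated at -0.286, -0.116 and -0.243, so these libraries share only a number, and the replicate block gave 3 genes. In the Th2 cells the groups share no replicate number, so no block by number was fitted; libraries 5 and 6 as a block, added after seeing the data, gave 5824 genes and 24 members. Depth is unknown in reads, so no limit of detection can be given for members below the filter. A member that did not pass is not shown to be equal.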
